A study of Mus musculus with 78 samples.

Results

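Components and targets of the aryl hydrocarbon receptor pathway, namely Cyp1a1, Cyp1b1, Ahr, Ahrr, Arnt, Tiparp and Nqo1, were followed through 3 tables of gene counts from ZFP143-depleted mouse embryonic stem cells. They are 7 of the 55401 genes in each table. The genes were listed by name, mainly for how they differed between dTAG-treated and DMSO-treated cells after retinoic acid (RA). Values of these genes that involve RA-treated libraries are therefore given as a description, without p-values, and where such a value passed a threshold nothing is read from it.

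The aryl hydrocarbon receptor, encoded by Ahr, is a ligand-activated transcription factor that waits in the cytoplasm in a complex with HSP90 and its co-chaperones. With a ligand bound, such as a polycyclic aromatic hydrocarbon or a compound made from tryptophan, it enters the nucleus, pairs with ARNT and binds DNA at sites with the core GCGTG. Its best known targets are Cyp1a1 and Cyp1b1, monooxygenases that also break down receptor ligands, and Ahrr and Tiparp, whose products restrain the receptor. Nqo1, a quinone reductase, is a target both of this receptor and of NRF2, the main activator of antioxidant genes.

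All libraries came from E14TG2a embryonic stem cells of the genotype ZFP143-FKBP, in which both copies of the transcription factor ZFP143 carry a degron and the line was grown from picked clones. dTAG-V1 at 500 nM, called dTAG here, removes the protein, and DMSO was the control. Transient transcriptome sequencing (TT-seq), which captures newly made RNA, covered DMSO and 3 dTAG times, 2 h, 6 h and 24 h. RNA-seq covered DMSO and dTAG for 24, 48 or 72 h. A second RNA-seq experiment, the RA table, compared 24 h of DMSO or dTAG with the same 24 h followed by 24 h of RA in the continued presence of DMSO or dTAG, so that its dTAG libraries after RA had been depleted for 48 h. Each group had 2 libraries. The medium was changed along with the addition of RA, and libraries after RA had 24 h more of DMSO or dTAG. RA, medium and time of treatment therefore cannot be told apart. Untagged cells with dTAG were not analysed here, so exposure to the compound and loss of ZFP143 cannot be told apart either. These are bulk samples, in which more cells with an RNA and more of it per cell cannot be told apart.

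Libraries held between 9721568 and 16532077 counts for TT-seq, between 10261851 and 15316700 for the time course and between 13890761 and 27089033 for the RA table. All 8 pluripotency markers on a fixed list were detected in each group of both RNA-seq tables. Zfp143 mRNA, whose protein dTAG degrades, was higher in dTAG libraries, with log2 changes from 1.09 to 1.30 in the time course and 1.36 before RA. This is a change in mRNA and does not measure the protein. Cyp26a1, an RA target, had at most 2 counts in each library without RA and between 1152 and 5578 in those with it, where its log2 difference between dTAG and DMSO was -2.18 ± 0.09. Markers of other cell types also moved with dTAG. The 5 fibroblast markers, of which at most 2 passed 10 counts in a group, summed to between 0.184 and 0.214 CPM (counts scaled by the effective library size) in DMSO and between 1.77 and 2.41 at 72 h of dTAG in the time course, and to between 5.17 and 8.87 in DMSO and between 18.4 and 18.8 in dTAG after RA. Dcn stayed at 0 counts in every group of both RNA-seq tables, and Lum in 7 of the 8. The 8 markers of extraembryonic endoderm summed to between 5.97 and 7.13 CPM in DMSO and between 15.5 and 17.4 over 48 and 72 h of dTAG, and to between 36.0 and 38.7 in DMSO and between 52.5 and 52.9 in dTAG after RA, where Gata6 was called higher at 1.18 and Dab2 lower at -1.60 on the log2 scale. The 4 endothelial markers summed to between 142 and 147 CPM in DMSO and between 208 and 213 at 72 h, with Cdh5 at 0 in both, and to between 47.3 and 91.5 in DMSO and between 206 and 239 in dTAG after RA. The 4 neural markers went the other way, from between 218 and 226 CPM in DMSO to between 97.2 and 104 at 48 h and between 136 and 143 at 72 h, although Sox1 among them was called higher at 72 h. After RA they stood between 108 and 124 in DMSO and between 50.4 and 52.9 in dTAG. The 5 trophectoderm markers had between 8.73 and 8.98 CPM in DMSO and between 16.7 and 17.1 at 72 h, with Cdx2 at 0 in both, and after RA between 9.76 and 10.6 in DMSO and between 13.3 and 14.6 in dTAG. The 8 pluripotency markers went from between 5559 and 5666 CPM in DMSO to between 4085 and 4136 at 72 h, and after RA stood between 705 and 1041 in DMSO and between 1368 and 1610 in dTAG. The part of these cell states in the results below was not tested.

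The start regions of the target genes are shown first, because the core of the binding site for the receptor can be read in them. They are RefSeq promoters in the build GRCm38.p6, from 250 bases before to 50 after the start, found for 6 of the 7 genes and read 5′ to 3′ on the gene's own strand. Ahr had no entry. Capitals mark each GCGTG or, on the other strand, CACGC, which was searched on both strands. Of 32851 promoters of this length, 32.4% held at least 1 match and 3.91% held 3 or more.
Cyp1a1, chr9:57697363-57697662, plus strand: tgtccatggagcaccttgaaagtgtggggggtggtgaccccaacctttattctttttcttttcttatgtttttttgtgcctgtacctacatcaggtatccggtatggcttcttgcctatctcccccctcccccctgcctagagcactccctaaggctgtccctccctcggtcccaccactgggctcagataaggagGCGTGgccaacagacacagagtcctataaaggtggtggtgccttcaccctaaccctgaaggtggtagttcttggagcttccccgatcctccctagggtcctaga
Cyp1b1, chr17:79715012-79715311, minus strand: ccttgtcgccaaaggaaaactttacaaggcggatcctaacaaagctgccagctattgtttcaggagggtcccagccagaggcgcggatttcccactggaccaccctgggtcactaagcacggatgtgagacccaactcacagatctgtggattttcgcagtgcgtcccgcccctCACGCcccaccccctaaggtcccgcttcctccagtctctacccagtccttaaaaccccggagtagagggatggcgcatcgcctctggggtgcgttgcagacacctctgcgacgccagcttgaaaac
Ahrr, chr13:74292282-74292581, minus strand: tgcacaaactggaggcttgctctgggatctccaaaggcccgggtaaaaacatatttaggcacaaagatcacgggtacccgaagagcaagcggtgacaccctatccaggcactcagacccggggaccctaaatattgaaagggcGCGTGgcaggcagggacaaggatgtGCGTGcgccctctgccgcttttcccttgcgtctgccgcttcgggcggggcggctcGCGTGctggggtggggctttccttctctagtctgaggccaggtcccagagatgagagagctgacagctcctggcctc
Tiparp, chr3:65528197-65528496, plus strand: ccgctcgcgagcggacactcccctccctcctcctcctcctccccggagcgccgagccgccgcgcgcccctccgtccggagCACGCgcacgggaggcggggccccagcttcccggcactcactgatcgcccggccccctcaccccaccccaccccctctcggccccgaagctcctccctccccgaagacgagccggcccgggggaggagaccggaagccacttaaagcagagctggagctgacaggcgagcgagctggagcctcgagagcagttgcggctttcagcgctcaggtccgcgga
The match in Cyp1a1 began 54 bases upstream of the start, that in Cyp1b1 76 bases and that in Tiparp 170 bases upstream. Ahrr had 3 matches, which began 107, 82 and 27 bases upstream. Arnt held 1 match and the Nqo1 window held none.

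Farther upstream the genes differed more. In the 2000 bases before the start, Cyp1a1 and Cyp1b1 each had 12 matches, Tiparp had 7, Ahrr had 6, and Arnt and Nqo1 had 1 each. The median over all promoters was 1 match, and 0.134% of them had 12 or more, while 2.13% had at least 7 and 3.96% at least 6. The motif contains a CG dinucleotide, and the same 2000 bases held 56 CG dinucleotides in Cyp1a1, 74 in Cyp1b1, 94 in Tiparp, 36 in Ahrr, 29 in Arnt and 33 in Nqo1, against a median of 27. In Cyp1a1, 5 of the 12 matches lay in 1 window of 300 bases between 1078 and 779 bases upstream of the start. The annotated gene model begins still farther upstream, so this window lies inside it. It is printed on the plus strand as the densest stretch of the region.
Cyp1a1 upstream, chr9:57696535-57696834: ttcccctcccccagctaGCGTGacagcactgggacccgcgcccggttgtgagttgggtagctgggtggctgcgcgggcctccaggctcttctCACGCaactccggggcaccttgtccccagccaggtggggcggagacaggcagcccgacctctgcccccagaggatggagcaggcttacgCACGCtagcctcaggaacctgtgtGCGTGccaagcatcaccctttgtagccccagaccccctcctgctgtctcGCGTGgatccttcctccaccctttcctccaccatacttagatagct
A match to these letters is a description of the sequence, not a bound site.

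**Figure D1:**
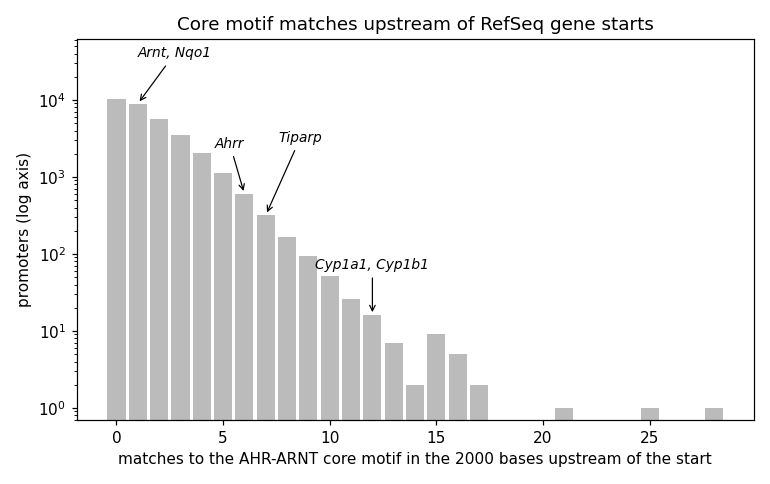
Number of RefSeq promoters (log axis) by the count of matches to the core motif of the aryl hydrocarbon receptor, on both strands, in the 2000 bases upstream of the start. Cyp1a1 and Cyp1b1 stand in the tail with 12 matches each, Tiparp and Ahrr have 7 and 6, and Arnt and Nqo1 have 1.

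A change in RNA-seq was called where edgeR placed it beyond a 1.5-fold change at an adjusted p under 0.01, and in TT-seq where the adjusted p was under 0.05 and the log2 change above 0.5 in size. The 3 dTAG times of a table share their DMSO libraries. No DMSO group is labelled for each time, so time in culture and time with dTAG cannot be told apart. The receptor and its partner come first. Ahr (chr12:35497974-35535038, minus strand) had between 192 and 310 counts in the 8 libraries of the time course, with a median of 215.5. DMSO stood at 21.5 ± 0.649 CPM (mean ± SD, n = 2), and the dTAG times in order at 17.8 ± 0.145, 17.1 ± 2.48 and 20.0 ± 1.61. Its RNA was thus detected throughout, and at 72 h the groups overlapped. The log2 changes against DMSO, -0.28 ± 0.11 (SE), -0.34 ± 0.11 and -0.10 ± 0.10 in order of time, were not called. That of 72 h changed sign when libraries were scaled by their size alone. Arnt (chr3:95434388-95497240, plus strand), the partner that Ahr shares with the hypoxia factors, was the more abundant RNA, with between 1647 and 2407 counts. Its log2 changes were 0.04 ± 0.05, 0.03 ± 0.05 and -0.09 ± 0.05 at 24, 48 and 72 h. Arnt stood at 165 ± 9.91 CPM in DMSO and 154 ± 3.01 at 72 h, a difference that edgeR did not call and whose sign also depended on the scaling. A long non-coding gene on the opposite strand overlaps 618 bases of Ahr and a pseudogene 352 bases of Arnt, so some reads there may not be theirs.

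Over the same 72 h the targets moved by far more. Cyp1a1 (chr9:57687928-57703824, plus strand) went from 36 and 62 counts in the DMSO libraries to 85 and 81 at 24 h, 493 and 410 at 48 h and finally 1307 and 1884 at 72 h. Each group lay above the one before it with no overlap between libraries. In CPM the levels were 3.86 ± 0.786, 7.12 ± 0.374, 38.0 ± 2.08 and 125 ± 5.37 (mean ± SD, n = 2). Cyp1a1 rose by 3.27 ± 0.13 (log2 ± SE) at 48 h, which is 9.66-fold (edgeR, adjusted p = 5.43e-17), and by 4.99 ± 0.10 at 72 h, which is 31.7-fold (adjusted p = 1.48e-23). Its change at 72 h was the 54th highest of 13925 tested genes. At 24 h the log2 change of 0.85 ± 0.18 was not called against a fold of 1.5 (adjusted p = 0.204), but it passed the looser thresholds used for TT-seq (adjusted p = 0.000274, within a range from 0.000274 to 1 over the alternatives).

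Cyp1b1 (chr17:79701537-79715061, minus strand), the second monooxygenase of the family, was hardly expressed in control cells. Both DMSO libraries (1 and 5 counts) and both 24 h libraries (6 and 4 counts) were near 0, while the later libraries had 28 and 27 counts (48 h) or 25 and 43 counts (72 h). It passed the filter of more than 10 counts in at least 4 libraries only through the 48 and 72 h libraries, so that it had to differ once tested. The fitted log2 change was 3.22 ± 0.49 at 48 h and 3.41 ± 0.47 at 72 h, and its p-values are not given for that reason. Its size depended on the DMSO libraries, being 2.67 and 2.86 without DMSO replicate 1 and 4.51 and 4.70 without DMSO replicate 2. Between 48 and 72 h, where Cyp1a1 still rose, Cyp1b1 had a log2 change of 0.20 ± 0.29 and its libraries overlapped.

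The genes whose products restrain the receptor went up as well. Tiparp (chr3:65528410-65555518, plus strand), an enzyme that ADP-ribosylates the receptor, started from 321 and 518 counts in DMSO and 457 and 381 at 24 h and reached 1080 and 950 at 48 h and, by 72 h, 1224 and 1466. The DMSO and 24 h libraries overlapped in CPM, and all later ones lay above them. It rose by 1.35 ± 0.08 at 48 h and 1.66 ± 0.08 at 72 h on the log2 scale (edgeR, adjusted p = 7.34e-10 and 1.88e-13). A pseudogene on the opposite strand overlaps 970 bases of Tiparp. Ahrr (chr13:74211118-74292331, minus strand), the repressor that competes for ARNT, was near the limit of detection, with 14 and 21 counts in DMSO. It had 24 and 20 counts at 24 h, 38 and 47 at 48 h, then 46 and 56 at 72 h. All dTAG libraries lay above both DMSO libraries in CPM. Its log2 changes of 1.35 ± 0.29 at 48 h and 1.51 ± 0.28 at 72 h were called by edgeR (adjusted p = 0.00925 and 0.00143). Ahrr was not called by DESeq2 (adjusted p = 0.38 and 0.124, the highest over the alternatives, the lowest being 0.000191 and 2.53e-05), nor without DMSO replicate 1 at either time (adjusted p = 0.0457 and 0.0112). At 48 h its call was also lost without DMSO replicate 2 (adjusted p = 0.0258), without 48 h replicate 2 (adjusted p = 0.106), with every gene that had a count and with the groups of the contrast alone.

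Nqo1 (chr8:107388225-107403206, minus strand) moved the other way. From 900 and 1211 counts in DMSO it went to 703 and 549 at 24 h, to 305 and 250 at 48 h, with 300 and 375 remaining at 72 h. No dTAG library reached a DMSO library in CPM. Nqo1 fell by 1.85 ± 0.08 at 48 h and by 1.67 ± 0.08 at 72 h on the log2 scale, or 3.62-fold and 3.19-fold (edgeR, adjusted p = 1.16e-14 and 9.51e-14). At 24 h its log2 change of -0.66 ± 0.07 was called only with the thresholds of TT-seq.

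In counts, edgeR called 0 of the 7 genes at 24 h, where it called 5.73% of the 13925 tested genes. DESeq2 called 0 too, and Cyp1a1 and Nqo1 had an unadjusted p under 0.05. Cyp1b1, which had to differ by the filter, is left out of the later counts. Of the other 6 genes 4 were called at 48 h against a background of 18.2%, and at 72 h the same number against 25.8%. These were Cyp1a1, Tiparp and Ahrr upward and Nqo1 downward, with Ahrr subject to the limits just given. The median log2 change of these 6 was 0.07, 0.69 and 0.71 at the 3 times, against medians between 0.01 and 0.02 over all tested genes. Direct steps between the dTAG times, added after the values had been seen, place the changes between those times. The steps have no DMSO counterpart, so time in culture may be part of them. From 24 to 48 h 3 of the 6 genes other than Cyp1b1 were called against a background of 3.23%, namely Cyp1a1 with a log2 change of 2.42 ± 0.11, Tiparp with 1.25 ± 0.08 and Nqo1 with -1.19 ± 0.08 (edgeR, adjusted p = 3.39e-13, 9.59e-08 and 9.75e-07). Cyp1b1, again subject to the filter, had 2.41 ± 0.44 and lost its call with DESeq2 and without either 24 h library. From 48 to 72 h only Cyp1a1 was called among the 7, with 1.72 ± 0.07 (adjusted p = 3.14e-13), against a background of 1.71%.

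**Figure D2:**
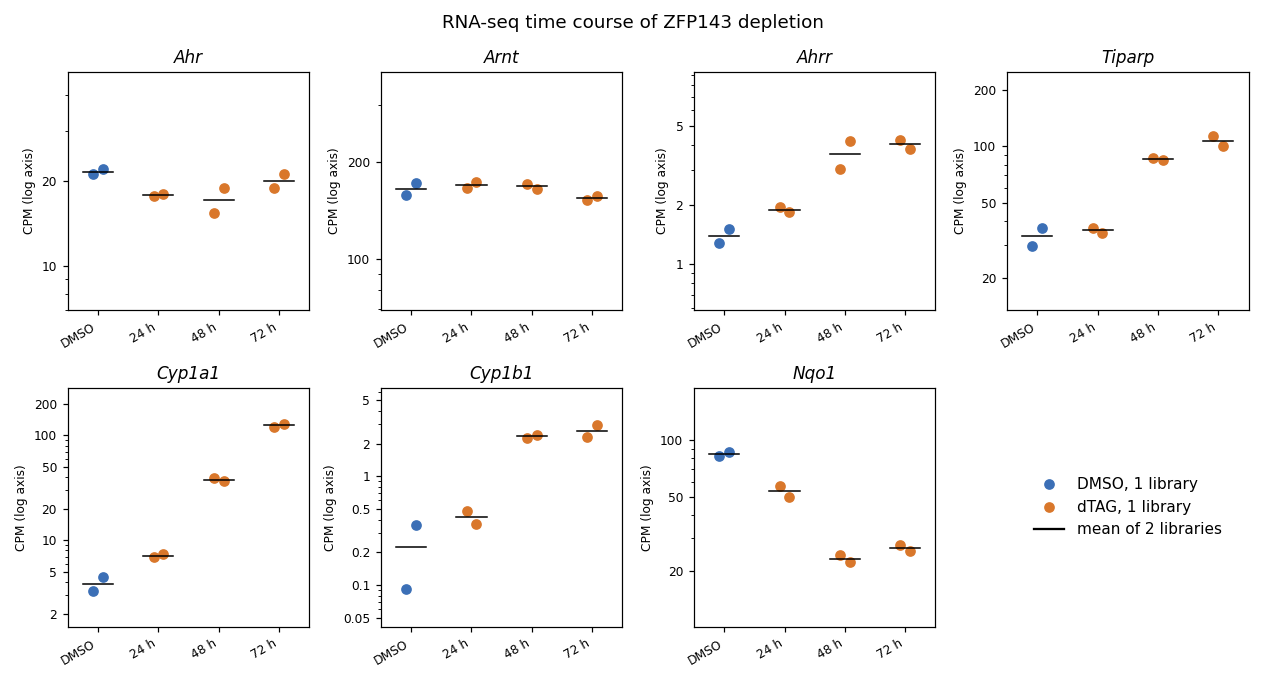
CPM of each gene (log axis) in the 2 libraries of DMSO and of 24, 48 and 72 h of dTAG in the RNA-seq time course, with the group mean as a line. Cyp1a1 climbs from 3.86 to 125 CPM, Tiparp from 33.2 to 107 CPM and Nqo1 goes from 84.5 to 26.7 CPM, while Arnt stays between 152 and 173 CPM in every library.

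Levels of different genes can be compared only per length, here as CPM per kb of exon. In DMSO the order was Nqo1 at 54.4, Arnt at 20.5, Tiparp at 7.62, Ahr at 3.49, Cyp1a1 at 1.39, Ahrr at 0.147 and Cyp1b1 at 0.0384, and no neighbours in that order overlapped. After 72 h Cyp1a1 headed the order with 44.7 CPM per kb, ahead of Tiparp with 24.5, Arnt with 19.3 and Nqo1 with 17.2, while Ahr had 3.25. Cyp1b1 with 0.449 and Ahrr with 0.428 overlapped at the bottom.

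TT-seq addressed whether these changes begin early. There 6 of the 7 genes were tested, since Cyp1b1 had at most 12 counts in a library. edgeR called none of them at 2, 6 or 24 h, against backgrounds of 2.60%, 3.23% and 6.11%, and DESeq2 called none. An unadjusted p under 0.05 was found for 0 genes at 2 h, 0 at 6 h and 2 at 24 h, Tiparp and Nqo1. Cyp1a1 had 15 and 42 counts with DMSO, then 20 and 132 at 2 h, 27 and 84 at 6 h and lastly 21 and 73 at 24 h. The second library was the higher one in all 4 groups, and the libraries of DMSO and dTAG overlapped at each time. In order of time the log2 changes of Cyp1a1 were 1.00 ± 0.82, 0.89 ± 0.84 and 0.67 ± 0.84. Libraries with the same replicate number deviated together in this table, and among those of 1 number every dTAG level was above DMSO, with 1.55 CPM in DMSO and 1.59, 2.10 and 2.07 in order of time for the first and 3.20, 7.95, 6.94 and 5.55 for the second. With the replicate number as a block the log2 changes were 0.90 ± 0.32, 0.88 ± 0.33 and 0.67 ± 0.34 (edgeR, adjusted p = 0.179, 0.128 and 0.215), and none was called. In the fit without the block, leaving out the second dTAG library turned the values to -0.59, -0.20 and -0.23.

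Tiparp had 427 and 950 TT-seq counts with DMSO, then 847 and 1082 at 2 h, 888 and 834 at 6 h and lastly 759 and 1364 at 24 h. Only at 24 h were both dTAG libraries above both DMSO libraries in CPM, with a log2 change of 0.61 ± 0.23 (edgeR, adjusted p = 0.169). For Nqo1 the libraries held 457 and 537 counts with DMSO, 603 and 1042 at 2 h, 551 and 659 at 6 h and only 286 and 392 at 24 h. Its libraries were above those of DMSO at 2 h in CPM and below them at 24 h, with log2 changes of 0.33 ± 0.18 (adjusted p = 0.548) and -0.60 ± 0.18 (adjusted p = 0.093). Both genes were called at 24 h when every gene with a count was tested (adjusted p = 0.0124 and 0.0229), beside a background of 6.05% in that fit, in ranges over the alternatives from 0.0124 to 0.511 for Tiparp and from 0.0229 to 0.273 for Nqo1. With the replicate block both were called at 24 h as well, Tiparp at 0.62 ± 0.18 (adjusted p = 0.0468) and Nqo1 at -0.61 ± 0.15 (adjusted p = 0.0296), so that 2 of the 6 tested genes were called against a background of 12.4% in that fit. Tiparp was called there also without DMSO replicate 2 (log2 change 1.03, adjusted p = 0.0445). Ahr, Arnt and Ahrr had log2 changes between 0.003 and 0.50 at the 3 times, of which that of Arnt at 24 h turned slightly negative when every gene with a count was tested or the contrast was fitted alone. Without the second dTAG library Ahr at 2 h became -0.082, and Ahrr became -0.35 at 2 h and -0.39 at 6 h. edgeR's common coefficient of variation was 17.2% for TT-seq against 3.65% for the time course, and TT-seq counts were taken over whole genes.

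**Figure D3:**
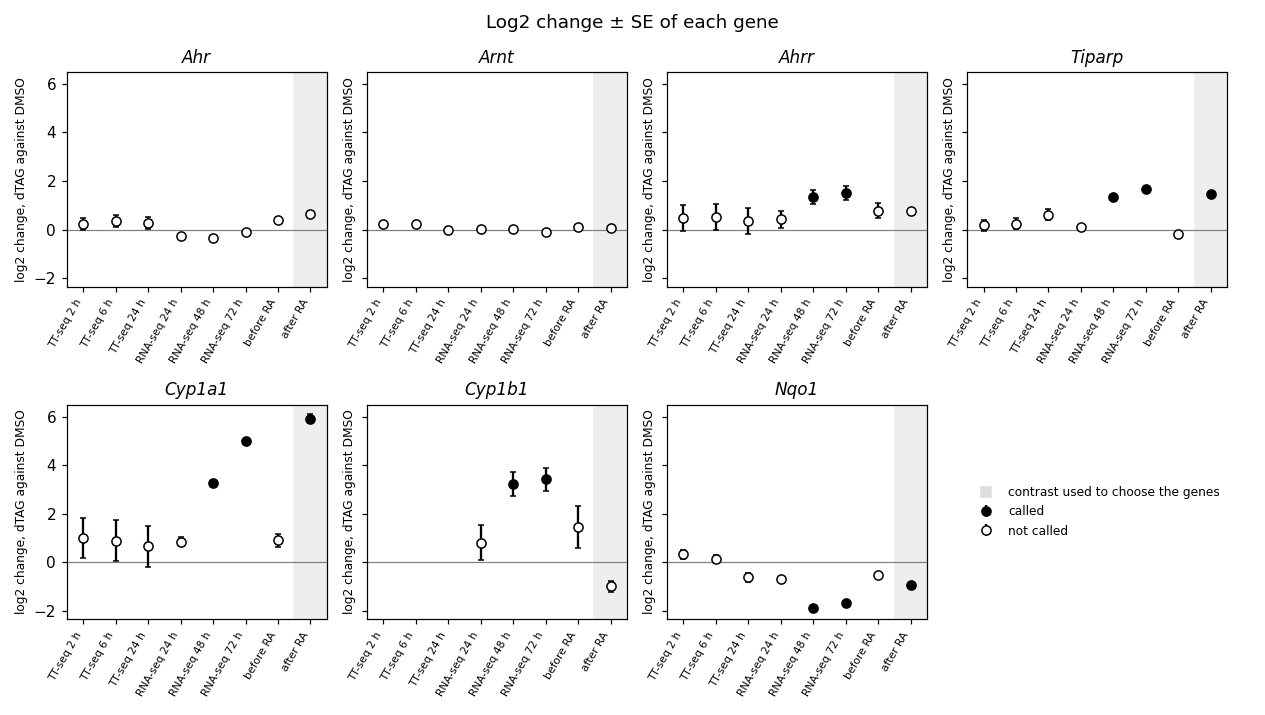
Log2 change ± SE of each gene between dTAG and DMSO for TT-seq, RNA-seq and the samples before and after RA, with filled points for called values and the contrast used to choose the genes on grey. Cyp1a1 goes from 0.85 at 24 h to 4.99 at 72 h, Nqo1 turns from 0.33 in TT-seq at 2 h to -1.85 in RNA-seq at 48 h, and Arnt stays between -0.09 and 0.25.

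The libraries of the RA table taken before RA repeat 24 h of dTAG in separate samples. Cyp1a1 had 48 and 29 counts in DMSO and 82 and 95 in dTAG, and both dTAG libraries were higher, by 0.92 ± 0.27 on the log2 scale (edgeR, adjusted p = 0.26). Nqo1 had 1858 and 1582 counts in DMSO and 1276 and 1673 in dTAG, all lower in CPM in dTAG, with -0.50 ± 0.09 (adjusted p = 1). Against a background of 6.40%, edgeR and DESeq2 each called 0 of the 7 genes, and Cyp1a1 had an unadjusted p under 0.05. The 2 tables were normalized separately, so their values stand side by side without a test. For Cyp1a1 the log2 changes at 24 h were 0.85 and 0.92, for Nqo1 -0.66 and -0.50, for Ahrr 0.42 and 0.79 and for Tiparp 0.10 and -0.19. Ahr had -0.28 in the time course and 0.39 in the RA table, each with non-overlapping libraries, so its direction differed between the experiments. With the thresholds of TT-seq, Cyp1a1 and Nqo1 were called in both tables, which is 2 of 7 genes beside a background of 19.9% in the time course and 22.9% in the RA table.

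The contrast that the genes were chosen on showed Cyp1a1 at its highest. In the RA table Cyp1a1 had 46 and 55 counts in DMSO after RA and 2992 and 3980 in dTAG after RA, set against 48 and 29 in DMSO and 82 and 95 in dTAG before RA. Only the libraries that had both dTAG and RA were high, and they were also the only dTAG libraries here at 48 h. Their level was 165 ± 28.2 CPM against 2.89 ± 1.22 in DMSO after RA, a log2 difference of 5.92 ± 0.17 or 60.4-fold. The difference with RA was 0.37 ± 0.30 in DMSO and 5.37 ± 0.16 in dTAG on the log2 scale, of which the first ran from 0.0011 without DMSO RA replicate 2 to 0.88 without DMSO RA replicate 1. Time-matched cells that stayed in stem cell medium, the 48 h dTAG libraries of the time course, had 38.0 CPM. That table was normalized on its own, so this is a value beside the others and not a comparison.

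Cyp1b1 had a different pattern in the same libraries. Its counts were 4 and 1 in DMSO, 7 and 10 in dTAG, 186 and 229 in DMSO after RA, and 119 and 130 in dTAG after RA, so it passed the filter only through the RA libraries. Its level was higher with RA in both conditions, by 6.35 ± 0.44 in DMSO and 3.93 ± 0.38 in dTAG on the log2 scale. The first of these ran from 5.74 without DMSO replicate 2 to 7.51 without DMSO replicate 1. After RA both dTAG libraries lay below both DMSO libraries, with 5.92 ± 0.191 against 11.9 ± 5.24 CPM and a log2 difference of -0.97 ± 0.23. Before RA they lay above, with 1.44 ± 0.86 at counts of at most 10, a value that ran from 0.85 without DMSO replicate 2 to 2.62 without DMSO replicate 1. Cyp1a1 and Cyp1b1, which went up together in the time course, thus stood on opposite sides of DMSO after RA.

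For Ahrr the counts were 18 and 11 in DMSO, 27 and 34 in dTAG, 165 and 134 in DMSO after RA, and 284 and 291 in dTAG after RA. The difference with RA was 3.34 ± 0.25 in DMSO and 3.31 ± 0.20 in dTAG, and the interaction of -0.04 ± 0.33 ran from -0.37 without DMSO replicate 1 to 0.21 without DMSO replicate 2. The dTAG libraries were higher both before and after RA, by 0.79 ± 0.33 and 0.75 ± 0.16. Tiparp had 1307 and 1138 counts in DMSO, 1147 and 1458 in dTAG, 2251 and 1680 in DMSO after RA, and 5789 and 6544 in dTAG after RA. In CPM it was 293 ± 16.5 in dTAG after RA against 107 ± 10.8 in DMSO after RA and 58.8 ± 1.04 in dTAG before RA. Its log2 difference between dTAG and DMSO was 1.46 ± 0.08 after RA, at 48 h of dTAG, and -0.19 ± 0.08 before RA, at 24 h.

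Nqo1 remained lower in dTAG, with 1994 and 1028 counts in DMSO after RA and 879 and 895 in dTAG after RA. The levels were 79.1 ± 12.7 and 42.2 ± 0.735 CPM, a log2 difference of -0.91 ± 0.09. Ahr had 221 and 132 counts in DMSO after RA and 325 and 294 in dTAG after RA, a log2 difference of 0.64 ± 0.14, and Arnt differed by 0.06 ± 0.07. Of the 7 genes 3 were called after RA beside a background of 16.5%, namely Cyp1a1, Tiparp and Nqo1, of which Nqo1 was not called without DMSO RA replicate 1 (log2 difference -0.72) or without either dTAG RA library (-0.90 and -0.87), nor by DESeq2 (-0.88) or with scaling by size alone (-0.70). For RA in DMSO the count was 2 (Cyp1b1 and Ahrr), or 1 without DMSO RA replicate 2, beside 43.9%, and for RA in dTAG it was 4 (Cyp1a1, Cyp1b1, Ahrr and Tiparp) beside 43.5%. The interaction, which is the RA difference in dTAG minus that in DMSO, counted 3 genes beside 31.7%, with 4.99 ± 0.38 for Cyp1a1, 1.64 ± 0.11 for Tiparp and -2.42 ± 0.87 for Cyp1b1, which ran from -3.59 without DMSO replicate 1 to -1.82 without DMSO replicate 2 and was not called without that library or either dTAG library. Nothing is read from these 4 counts, because the genes were chosen on these libraries.

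**Figure D4:**
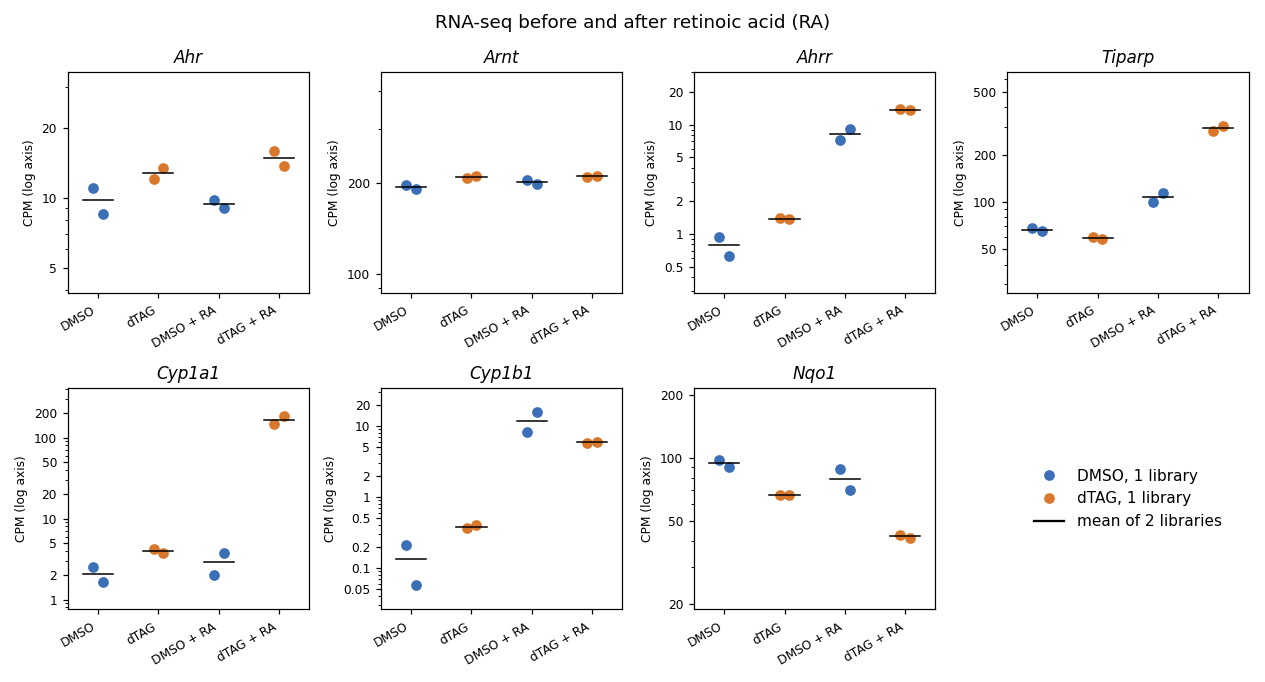
CPM of each gene (log axis) in the 2 libraries of each group of the RA table, with the group mean as a line. Cyp1a1 and Tiparp are highest in dTAG after RA, at 165 and 293 CPM, Ahrr and Cyp1b1 are high in both groups with RA, and Nqo1 is lowest in dTAG after RA at 42.2 CPM.

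Per kb of exon, Nqo1 led the order in DMSO before RA with 60.6 CPM per kb and Cyp1a1 stood 5th with 0.750. In dTAG after RA Tiparp with 67.2 and Cyp1a1 with 59.3 headed the order and overlapped each other, followed by Nqo1 with 27.2 and Arnt with 26.2. In DMSO after RA Cyp1a1 had 1.04 CPM per kb and could not be set apart from Ahrr with 0.870, while Cyp1b1 had 2.04 and overlapped Ahr with 1.52.

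The genes whose log2 CPM over the 8 libraries of the RA table was most like that of Cyp1a1, among 11344 others with a mean count of at least 100, were St3gal3 (Pearson r = 0.993), Fbp2 (r = 0.990), Plpbp (r = 0.990), Zyg11b (r = 0.989) and Hps4 (r = 0.987). All 8 points share the same RA and dTAG libraries. None of these genes matched Cyp1a1 in size, since their log2 differences between dTAG and DMSO after RA ran from 0.48 for Hps4 to 2.46 for Fbp2. Among the members Tiparp was nearest with r = 0.918, at rank 210. Ahr had r = 0.764 and Nqo1 r = -0.942.

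The genes next to Cyp1a1 were read as well. Cyp1a2, another target of the receptor in liver, starts 13910 bases upstream of the RefSeq start of Cyp1a1 and is transcribed away from it. It had at most 14 counts in any library of the 3 tables and was tested in none of them, with 5 and 1 counts in DMSO and 12 and 13 after 72 h of dTAG. After RA it had 0 counts in both DMSO libraries and 11 and 14 in the dTAG libraries, but at 24 h of the time course it had 1 and 0 counts with dTAG, and before RA 3 and 5 counts in DMSO and 1 and 4 in dTAG. Edc3, a component of mRNA decapping that starts 10927 bases downstream, had log2 changes of 0.33 ± 0.05 at 72 h and 0.31 ± 0.07 after RA, neither of them called.

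The ZFP143 and CTCF peak lists show where these factors were bound near the genes. Of the 7 genes only Nqo1 had a ZFP143 peak at its promoter, compared with 15.1% of the 14594 coding and long non-coding genes tested in the RA table. A peak counted as at the promoter where it lay in the window from 2000 bases upstream to 1000 downstream of an annotated transcript start with its centre within 2000 bases. That peak, chr8:107403134-107403577, covers the start of Nqo1 and was enriched 20.9-fold over input, above 50.2% of the 3189 peaks. The nearest ZFP143 peak to an annotated start of Cyp1a1 was 28.0 kb away, of Ahrr 57.7 kb, of Arnt 70.2 kb, of Tiparp 136 kb, of Cyp1b1 412 kb and of Ahr 2361 kb. CTCF peaks lay at the promoters of Ahrr, Cyp1b1 and Tiparp, with centres 85, 680 and 787 bases from a start, compared with 22.1% of the same genes that had one. The CTCF peak at Ahrr, chr13:74292311-74292521, lies in the promoter printed above and covers all 3 of its marked matches.

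The Nqo1 promoter is shown because it is the one under a ZFP143 peak. Capitals mark a match to CCCANNATG, a central stretch of the ZFP143 binding motif chosen with this sequence in view and searched on both strands.
Nqo1, chr8:107403156-107403455, minus strand: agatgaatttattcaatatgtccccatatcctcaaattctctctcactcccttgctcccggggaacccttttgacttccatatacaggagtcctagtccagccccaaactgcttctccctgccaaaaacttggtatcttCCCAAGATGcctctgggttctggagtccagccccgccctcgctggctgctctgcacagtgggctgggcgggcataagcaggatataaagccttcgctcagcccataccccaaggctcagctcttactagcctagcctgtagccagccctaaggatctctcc
The match at chr8:107403308-107403316 lies inside the peak, with its middle 43.5 bases from the centre of the peak. Such a match was present in 5.01% of all promoters, in 17.3% of the 1811 under a ZFP143 peak and in 4.29% of the others. The promoter of Arnt held a match too, 17 bases upstream of the start, although it was under no ZFP143 peak. TGACNNNGC, a core of the antioxidant response element to which NRF2 binds, was not in this window, and 12.4% of all promoters held it. In the 2000 bases upstream of the start Nqo1 had 2 such matches, and 15.8% of all promoters had 2 or more.

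The 2319 tested genes with a ZFP143 peak at the promoter had a median TT-seq log2 change of -0.28 at 2 h, and 16.7% of them were called lower. Nqo1 stood at 0.33 then, above 93.8% of those bound genes. At 24 h of TT-seq it was above 30.2% of them. In RNA-seq, where 2090 bound genes were tested, it was above 24.7% of those at 24 h, 6.70% at 48 h and 9.0% at 72 h.

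The other genes of the pathway were read from fixed lists. At 72 h 13.7% of the tested genes were called higher and 12.0% lower, so that 53.3% of the calls were higher, or 71.2% when libraries were scaled by size alone and 49.3% with DESeq2. Of 10 further targets of the receptor only 3 were expressed enough to test, and 0 were called higher and 2 lower, namely Aldh3a1, an aldehyde dehydrogenase, at -1.81 ± 0.29 and Cyp2s1, a monooxygenase, at -1.39 ± 0.10. Slc7a5, an amino acid transporter, had 0.24 ± 0.04. The median of the 3 was -1.39 against 0.02 over all tested genes. Of the 4 chaperone genes that hold the receptor, 1 was called, lower, and none higher, with a median of -0.57. Hsp90aa1, a subunit gene of HSP90, fell by 0.95 ± 0.05, and the other 3 had log2 changes from -0.65 to -0.30.

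Other factors of the bHLH-PAS family, to which Ahr and Arnt belong, were called higher in 3 of 8 tested cases and lower in 0 at 72 h. These were Arntl2 with 2.25 ± 0.30, Arnt2 with 1.98 ± 0.15 and Arntl with 1.26 ± 0.09. Arnt2 is a close relative of Arnt, and Arntl encodes the clock factor BMAL1. The median of the 8 was 0.27. Of the enzymes that turn tryptophan into kynurenine and related receptor ligands, 5 of 11 were tested, 1 was called higher and 1 lower, Ido2 at 1.69 ± 0.36 and Kyat3 at -1.17 ± 0.10. Among cytochrome P450 genes other than Cyp1a1 and Cyp1b1, 17 of 92 were tested at 72 h, 8 were called higher and 1 lower. Cyp2b23 rose by 3.90 ± 0.22, Cyp27a1 by 2.12 ± 0.34, Cyp2u1 by 1.99 ± 0.37 and Cyp46a1 by 1.91 ± 0.45, so Cyp1a1 and Cyp1b1 were not the only genes of the superfamily to rise.

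The NRF2 pathway bears on Nqo1. Of its 16 listed genes 15 were tested at 72 h, 2 were called higher and 6 lower, with a median log2 change of 0.01. Slc7a11, the cystine transporter, rose by 2.42 ± 0.19 and Hmox1, haem oxygenase, by 1.93 ± 0.05. Gsr, glutathione reductase, fell by 1.76 ± 0.04, and Gsta4, a glutathione transferase, by 1.45 ± 0.05. The other 4 that fell had log2 changes from -1.40 to -1.05. In TT-seq at 24 h Slc7a11 was already higher by 2.28 ± 0.49 and Gsr lower, at -0.54 ± 0.12 (edgeR, adjusted p = 0.0328 for both). The factor itself, Nfe2l2, had 0.41 ± 0.04, and its inhibitor Keap1 0.07 ± 0.08, both without a call. Nqo1 thus moved in the direction of Gsr and Gsta4 and against Slc7a11 and Hmox1.

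In the RA table before RA, where 2.74% of the genes were called higher and 3.66% lower (42.8% of the calls higher, or 56.5% with scaling by size alone and 23.2% with DESeq2), the NRF2 list had 1 gene called higher and 0 lower of 15, with a median of -0.26 against 0.06 over all tested genes. That gene, Slc7a11, rose by 2.75 ± 0.30. Of 10 tested bHLH-PAS factors 1 was called higher and 0 lower, Arnt2 at 1.07 ± 0.11, with a median of 0.23. Of the 3 tested further targets 1, Cyp2s1, was called and fell by 1.05 ± 0.14. Of 21 tested cytochrome P450 genes 4 were called higher and 1, the same Cyp2s1, lower. Cyp2u1 rose by 2.47 ± 0.34, Cyp46a1 by 2.07 ± 0.41, Cyp2b23 by 1.80 ± 0.21 and Cyp39a1 by 1.22 ± 0.15. After RA, where 9.10% were called higher and 7.36% lower (55.3% of the calls higher, or 73.3% with scaling by size alone and 50.8% with DESeq2), the NRF2 list had 3 genes called higher and 2 lower of 15. The median log2 difference of the 15 was -0.57 against 0.003 over all tested genes. Hmox1 rose by 2.12 ± 0.08, Slc7a11 by 2.81 ± 0.31 and Nfe2l2 by 0.84 ± 0.08, and Prdx1 and Gsta4 fell by 1.26 ± 0.07 and 1.28 ± 0.08. Of the 3 tested further targets 0 were called after RA by edgeR or DESeq2 and 0 had an unadjusted p under 0.05, and their log2 differences ran from 0.60 to 0.98. Of 10 tested bHLH-PAS factors 3 were called higher and 0 lower, with a median of 0.63. These were Arntl with 1.81 ± 0.11, Npas1 with 2.54 ± 0.30 and Npas2 with 2.49 ± 0.38. Hsp90aa1, which fell at 72 h, rose by 0.93 ± 0.09 after RA. Of 7 tested tryptophan enzymes edgeR and DESeq2 called 0 and 1, Afmid, had an unadjusted p under 0.05, with a median of 0.49, and of 21 tested cytochrome P450 genes 4 were called higher and 1, Cyp26a1, lower.

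**Figure D5:**
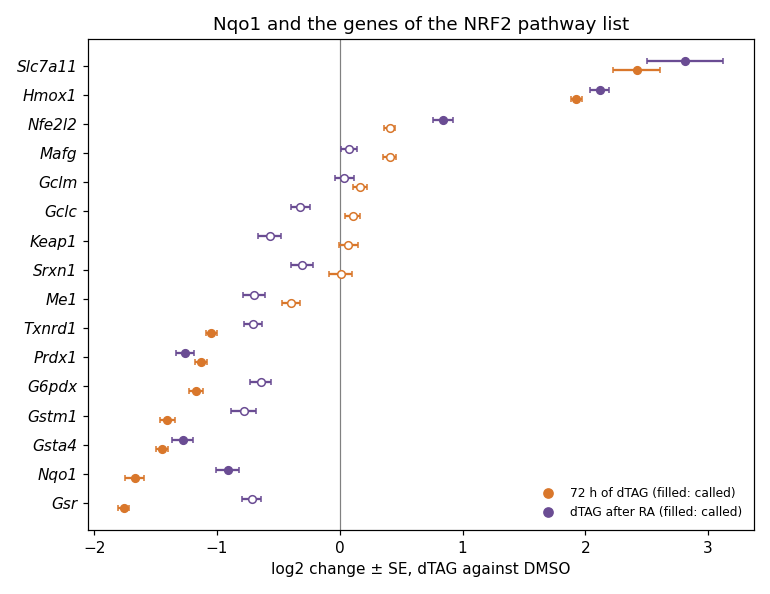
Log2 change ± SE between dTAG and DMSO of Nqo1 and the 15 tested genes of the NRF2 pathway list, at 72 h of the time course and after RA, with filled points for called values. Slc7a11 and Hmox1 lie above 1.9 in both, and Nqo1 lies with Gsr and Gsta4 on the negative side in both.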

How the data were processed

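Gene counts were analysed from 8 TT-seq, 8 time course RNA-seq and 8 RA table libraries, 2 biological replicates per group. The authors aligned reads with STAR to mm10 with GENCODE annotation, removed duplicates from TT-seq and counted whole genes with HTSeq, and took RNA-seq counts per gene from STAR; these counts were deposited without normalization. Which strand column of STAR was used is not given in the sources used here. The authors called ZFP143 peaks with MACS2 against input, 1 list for the factor, and deposited for each peak the fold enrichment over input and the −log10 of its q-value. CTCF peaks were pooled over DMSO and dTAG cells and used by position. Symbols and positions came from another GENCODE release for the same build, which matched 55141 of 55401 identifiers, and sequences from RefSeq GRCm38.p6.

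A gene was kept where 4 or more of a table's 8 libraries exceeded 10 counts, which left 17870, 13925 and 15915 genes in the order above. Each table was fitted once over its 4 groups with edgeR 4.0.16 (R 4.3.3), TMM scaling and the quasi-likelihood test. For RNA-seq, glmTreat tested each change against a fold of 1.5, called at adjusted p under 0.01, and TT-seq contrasts and the interaction used adjusted p under 0.05 with a log2 change above 0.5 in size. Adjustment was by Benjamini-Hochberg over all tested genes, and log2 changes are given ± SE. The fits were tested on simulated data. DESeq2 1.42.0, other scalings, no filter, the replicate number as a block, the contrast's groups alone, the thresholds of TT-seq and each library left out were the alternatives.

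The 7 genes and the gene lists were chosen with earlier results of these data known, so contrasts with RA libraries carry no p for the 7 genes, and list counts are no independent evidence. The steps between dTAG times and the motifs were added after values had been seen. From each list at most 4 called genes per contrast were named, by size of change. Among the cytochrome P450 genes, Cyp2s1 before RA and Cyp26a1 after RA were named outside this rule. Slc7a5, Nfe2l2 and Keap1 for their role, and Afmid for its unadjusted p, were named after their values were seen. The genes most like Cyp1a1 were the 5 with the highest Pearson r of log2(CPM + 0.5). In TT-seq all 6 pairs of groups had same-numbered libraries that deviated together (r from 0.205 to 0.651), so the replicate number was taken as pairing them, and the blocked values are given where they change a call. The contacts from 4C were not used here, since no viewpoint lay at these genes, and Hi-C was not analysed here.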

Additional observations from a re-analysis of the deposited data

Results flagged for a closer look

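For Cyp1b1, Tiparp and Nqo1 the libraries of a pair of contrasts lay wholly on opposite sides of their controls. Cyp1b1 had a log2 difference between dTAG and DMSO of 1.44 before RA, at counts of at most 10, and -0.97 after RA. Tiparp had -0.19 before RA and 1.46 after RA. The contrast before RA is at 24 h of dTAG and that after RA at 48 h. In the time course without RA, Tiparp had 0.10 at 24 h and 1.35 at 48 h. Because the genes were chosen on the RA libraries, the difference between the contrasts before and after RA was not tested for them. Nqo1 had a TT-seq log2 change of 0.33 at 2 h and -0.60 at 24 h against the same DMSO libraries, neither of them called in the main fit. The value at 24 h was called with the replicate block and when every gene with a count was tested. The difference between the times was not tested.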

How the results depend on the processing

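Of the values reported, Cyp1a1, Tiparp and Nqo1 kept their direction and their calls at 48 and 72 h under all 11 alternatives. Cyp1a1 at 72 h ranged from 4.82 to 5.23 (log2). The calls of Ahrr, and of Cyp1b1 between 24 and 48 h, were lost under some, with values given above. Precision is limited by 2 libraries per group and, for Cyp1b1, Ahrr and Cyp1a1 in TT-seq, by low counts. Where a value moved, the cause was not tested.

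The labels tie no replicate number to a shared sample. Deviations of same-numbered libraries correlated between -0.0456 and 0.06 in the time course and between -0.146 and 0.167 in the RA table, so that libraries there share only a number, unlike in TT-seq. With the replicate block 2 of the 7 genes, Tiparp and Nqo1, were called in TT-seq at 24 h, against 0 without it, and edgeR called 749, 1315 and 2223 of all genes at 2, 6 and 24 h against 465, 577 and 1091. The block moved no other count of called members by over 1.5 times. Testing every gene with a count also gave 2 called members in TT-seq at 24 h, beside 6.05% of all genes. With the thresholds of TT-seq, the called members were 2 at 24 h of RNA-seq, 2 before RA and 6 after RA, beside 19.9%, 22.9% and 39.6% of all tested genes. Nothing is read from the count after RA, because the genes were chosen on those libraries.

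Leaving out single libraries gave 0 to 1 called members in TT-seq at 24 h, beside 2.65% to 3.58% of all genes, 3 to 4 with Cyp1b1 counted at 48 h of RNA-seq, beside 14.8% to 16.6%, where Cyp1b1 then failed the filter or Ahrr its call, and 1 to 2 for RA in DMSO, beside 37.0% to 40.9%. DESeq2 called fewer of all genes than edgeR in RNA-seq, 437 against 798 at 24 h, 1509 against 2529 at 48 h, 2279 against 3589 at 72 h, 174 against 450 from 24 to 48 h, 64 against 238 from 48 to 72 h, 617 against 1019 before RA and 1554 against 2620 after RA. In TT-seq it called more, 540 against 465 at 2 h, 765 against 577 at 6 h and 1272 against 1091 at 24 h. Scaling by library size alone moved the median log2 change of all genes to between 0.15 and 0.39 in the RNA-seq contrasts between dTAG and DMSO and between RA and no RA, and the Cyp1a1 level in dTAG after RA to 201 CPM.

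Among the tested contrasts, signs changed in these cases, all of uncalled values. With library size alone Ahr and Arnt became 0.12 and 0.13 at 72 h, and 0.0081 and 0.059 from 24 to 48 h. With every gene with a count Arnt became -0.013 in TT-seq at 24 h and -0.0079 in RNA-seq at 48 h, and with the contrast alone -0.0042 in TT-seq at 24 h. Over single libraries left out, TT-seq at 2 h ranged from -0.59 to 1.71 for Cyp1a1, -0.082 to 0.51 for Ahr, -0.35 to 0.99 for Ahrr and -0.13 to 0.60 for Tiparp. At 6 h the ranges were -0.20 to 1.54 for Cyp1a1, -0.39 to 1.06 for Ahrr, -0.081 to 0.65 for Tiparp and -0.036 to 0.31 for Nqo1, and at 24 h -0.23 to 1.33 for Cyp1a1 and -0.034 to 0.0500 for Arnt. In RNA-seq they were -0.0202 to 0.10 for Arnt and -0.044 to 0.28 for Tiparp at 24 h, -0.029 to 0.094 for Arnt at 48 h, -0.20 to 0.092 for Ahr and -0.0401 to 0.024 for Arnt from 24 to 48 h, and -0.066 to 0.39 for Ahrr from 48 to 72 h.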
